A study of Rattus norvegicus with 63 samples.

Results

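The genes described here are 9 genes of hepatic bile acid metabolism, measured in rat liver on Affymetrix RAE230A arrays. They were chosen by symbol, with earlier results of these data known. All 9 were on the array, each with 1 probe set, among 10411 genes measured in all. Male Wistar Hanover rats of 8 to 10 weeks were dosed by gastric gavage with 1 of 15 compounds or with vehicle alone, and the 63 arrays held 45 treated livers and 18 vehicle livers, with 3 animals in each of 21 groups. The 3 treated animals of a group were picked from the dosed rats because their livers showed histopathological changes, so they are separate animals but no random draw.

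Each compound was set against its own vehicle controls. MC control set 1 (methylcellulose, MC) served acetamide (AA) at 3000 mg/kg/d, dehydroepiandrosterone (DHEA) at 600 mg/kg/d and methylcarbamate (Mcarb) at 400 mg/kg/d for 14 days, methapyrilene (MPy) at 60 mg/kg/d and thioacetamide (TAA) at 19.2 mg/kg/d for 7 days, and Wy-14643 (Wy) at 60 mg/kg/d for 3 days. MC control set 5 served ethionine (ETH) at 200 mg/kg/d for 14 days, and diethylstilbestrol (DES) at 10 mg/kg/d and piperonylbutoxide (PBO) at 1200 mg/kg/d for 3 days. MC control set 2 served cefuroxime (CFX) at 250 mg/kg/d and nifedipine (Nif) at 3 mg/kg/d, and MC control set 6 phenobarbital (PB) at a dose that the study's methods state but the labels do not, all for 14 days. In corn oil (CO), the dye C.I. Direct Black (CIDB) at 146 mg/kg/d shared CO control set 3 with dimethylnitrosamine (DMN) at 4 mg/kg/d, for 7 days, and cyproterone acetate (CPA) at 100 mg/kg/d for 14 days had CO control set 4. AA, DES, DHEA, ETH, Mcarb, MPy, PB and PBO were classed as non-genotoxic carcinogens (NGC), CIDB and DMN as genotoxic carcinogens (GC), CFX and Nif as non-carcinogens (NC), and CPA, TAA and Wy were left undefined. The labels give 14 days for the MC control sets, whereas the study's methods call the controls time-matched. If the labels hold, compound and dosing time cannot be told apart for DES, PBO, Wy, MPy and TAA. The sources also differ on whether this vehicle was methylcellulose or carboxymethyl cellulose.

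Bile acids are made from cholesterol in hepatocytes, either through 7α-hydroxylation by Cyp7a1, the rate-limiting enzyme of the classic pathway, or through side-chain oxidation that begins with the mitochondrial sterol 27-hydroxylase Cyp27a1. The 12α-hydroxylase Cyp8b1 directs intermediates towards cholic acid. Slc27a5 links bile acids to coenzyme A and Baat joins them to taurine or glycine. Conjugated bile acids return from the blood through the sodium-dependent uptake carrier Slc10a1 and leave the cell into bile through the export pump Abcb11. The nuclear receptor Nr1h4 (FXR) senses bile acids and induces Nr0b2 (SHP), a corepressor that lowers transcription of the synthesis genes.

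Of the 135 comparisons of a gene with a compound, 27 passed an adjusted p under 0.05, 6 higher and 21 lower in treated livers than in the compound's control set. Over the 15 compounds the share of all probe sets called ran from 0.0063% to 11.7% higher and from 0% to 11.8% lower. The 27 calls were in 8 of the 9 genes and 8 of the 15 compounds. DES changed most of these genes, with 1 of 9 higher and 5 of 9 lower, where 6.77% of all 15866 probe sets were higher and 8.72% lower. ETH followed with 1 of 9 higher and 4 of 9 lower, beside 11.7% and 11.8% of all probe sets. PBO lowered 3 of 9 and raised none, beside 7.46% lower and 7.03% higher overall. DHEA and Wy each raised 1 and lowered 2, where DHEA raised 9.3% and lowered 8.37% of all probe sets and Wy raised 6.5% and lowered 6.45%. CIDB raised 2 and lowered 1, beside 8.14% and 5.75% overall. MPy lowered 2, with 3.28% of all probe sets higher and 3.04% lower, and TAA lowered 2, with 3.15% higher and 3.25% lower. In all 8 compounds the lower calls took a larger part of the 9 genes than of all probe sets. These 8 were picked by having a call, however. Outside ETH, 1 lower call of 9 genes was already a larger part than the share over all probe sets. The comparison therefore says little where calls were few. In DHEA, Wy, MPy and TAA the lower calls were 2 genes each, and in CIDB 1. The 6 higher calls were 1 gene each in DES, ETH, DHEA and Wy and 2 in CIDB. The 1 of 9 higher in ETH or DHEA was close to the share over all probe sets.

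In the other 7 compounds limma called 0 of the 9 genes. The shares of all probe sets that follow are at an adjusted p under 0.05, whereas the gene counts are at an unadjusted p. Counts and shares therefore cannot be compared here. At an unadjusted p under 0.05 there were 2 genes in Mcarb, where 0.782% of all probe sets were called higher and 0.284% lower, and 2 in DMN, where 2.31% were higher and 0.92% lower. AA had 1 such gene (2.74% of probe sets higher, 1.92% lower), CPA 1 (3.11% and 4.73%) and CFX 1 (0.0063% and 0%). PB (0.964% higher, 0.384% lower) and Nif (3.78% and 4.68%) had 0. These 7 compounds held both non-carcinogens, CFX and Nif, but also the NGC AA, Mcarb and PB, the GC DMN and the undefined CPA.

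**Figure D1:**
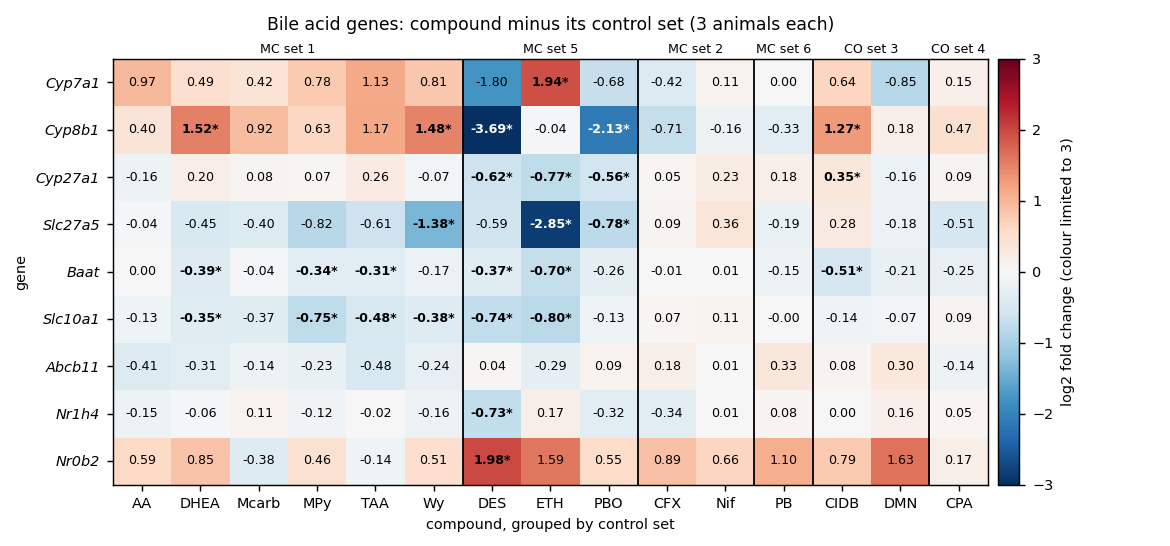
Log2 fold change (compound minus its control set, 3 animals each) of the 9 genes in rows for the 15 compounds in columns, grouped by control set, with an asterisk and bold type for an adjusted p under 0.05 and the colour limited to a size of 3. The values reach -3.69 for Cyp8b1 in DES and -2.85 for Slc27a5 in ETH, and Abcb11 carries no asterisk.

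Cyp8b1 had the widest range of the 9 genes. Its 300-base promoter is shown because its level moved in both directions among the compounds, together with that of Nr0b2, whose product acts on it, and those of Slc10a1 and Slc27a5, which fell in several compounds. The sequences are RefSeq's in build GRCr8, given 5′ to 3′ on the gene's strand, from 250 bases before to 50 after the start of transcription. Capitals mark CAAGG, the core of the site read by the receptor Nr5a2 (LRH-1), on either strand, and AGGNCNNAGGNCA, a direct repeat with 1 base between its arms, of the kind read by Hnf4a and by Ppara with Rxra.
Cyp8b1, chr8:130457543-130457842, minus strand: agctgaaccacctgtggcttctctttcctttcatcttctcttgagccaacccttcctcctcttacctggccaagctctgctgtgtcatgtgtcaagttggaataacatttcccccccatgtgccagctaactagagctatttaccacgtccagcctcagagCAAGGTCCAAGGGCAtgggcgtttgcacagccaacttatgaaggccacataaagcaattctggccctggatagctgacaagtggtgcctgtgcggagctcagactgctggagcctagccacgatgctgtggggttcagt
Nr0b2, chr5:151062910-151063209, plus strand: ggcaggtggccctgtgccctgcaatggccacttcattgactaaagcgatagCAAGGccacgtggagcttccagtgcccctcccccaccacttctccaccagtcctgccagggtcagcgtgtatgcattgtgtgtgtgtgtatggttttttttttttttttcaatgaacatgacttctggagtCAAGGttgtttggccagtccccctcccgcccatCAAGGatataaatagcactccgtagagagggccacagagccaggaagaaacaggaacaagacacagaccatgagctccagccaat
Slc10a1, chr6:106357895-106358194, minus strand: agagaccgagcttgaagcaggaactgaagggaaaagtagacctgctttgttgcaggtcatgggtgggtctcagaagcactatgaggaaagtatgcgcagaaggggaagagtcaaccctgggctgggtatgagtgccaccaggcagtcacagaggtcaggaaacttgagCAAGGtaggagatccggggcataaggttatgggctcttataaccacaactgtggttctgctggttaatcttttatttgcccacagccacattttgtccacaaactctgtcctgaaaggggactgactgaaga
Slc27a5, chr1:82699286-82699585, minus strand: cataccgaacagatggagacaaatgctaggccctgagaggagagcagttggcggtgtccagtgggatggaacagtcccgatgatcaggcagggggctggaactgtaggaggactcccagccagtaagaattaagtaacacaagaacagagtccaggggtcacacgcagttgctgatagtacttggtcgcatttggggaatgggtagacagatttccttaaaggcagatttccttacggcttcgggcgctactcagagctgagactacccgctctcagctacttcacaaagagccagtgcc

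Both strands were searched in all cases. The Cyp8b1 window held the direct repeat once, as AGGTCCAAGGGCA from position -87, overlapping CAAGG matches at -89 and -82. That repeat was in 0.771% of 33469 rat promoters, and CAAGG, a short motif, in 52.4%. The Nr0b2 window had CAAGG 3 times and TATAAA at -29, a motif of 14.2% of promoters. Slc10a1 had CAAGG once and the nuclear receptor core AGGTCA 2 times (positions -197 and -99), which 16.2% of promoters held. No CAAGG or AGGTCA was found in the Slc27a5 or Baat window, and the inverted repeat AGGTCANTGACCT, in 0.0269% of promoters, was in none of the 6 windows of the 9 genes that had an entry. Cyp7a1, Nr1h4 and Abcb11 had no entry in the promoter table. A match of letters is a description and no evidence of binding.

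Cyp7a1 (chromosome 5, 24174505 to 24184202) was called in ETH alone. ETH livers had log2 values of 12.81, 12.21 and 11.24, against 9.16, 10.67 and 10.61 in MC control set 5. All 3 ETH livers lay above all 3 controls, by 1.94 ± 0.68 on the log2 scale (SE, 3.83-fold, adjusted p = 0.0326), and the call was lost without ETH replicate 1 (1.58), ETH replicate 2 (1.88) or control replicate 7 (1.44), and with array weights (1.85). In DES livers the values were 10.28, 7.31 and 7.47 against the same controls. Here 2 DES livers were far below the controls and 1 lay among them, the mean difference was -1.80 with a 95% interval from -3.17 to -0.42, and the adjusted p was 0.0678. Wy livers were also split, with 11.17, 8.73 and 11.20 against 10.03, 9.68 and 8.97 in MC control set 1. TAA livers, at 10.28, 10.38 and 11.42, were all above these controls, but the difference of 1.13 ± 0.68 had an adjusted p of 0.380. Vehicle livers themselves ranged from 8.52 to 11.05 (median 9.55, n = 18), with an SD of 0.97 within sets, so differences of this size between groups of 3 were hard to detect for this gene.

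Cyp8b1 (chromosome 8, 130455622 to 130457592) fell the furthest of any of the 9 genes, in DES. DES livers had 8.24, 8.01 and 7.72, against 11.19, 12.28 and 11.57 in MC control set 5. The groups did not overlap, and the level was 12.9-fold lower (log2 difference -3.69 ± 0.42, adjusted p = 3.19e-09). PBO livers had 8.87, 9.13 and 10.65 against the same controls, also without overlap, at 4.37-fold lower (-2.13 ± 0.42, adjusted p = 2.19e-04). ETH livers, in contrast, had 11.98, 11.37 and 11.58, a difference of -0.04 with a 95% interval from -0.88 to 0.80. All 3 DES livers also lay below all 3 PBO livers, a difference that was not tested. Both calls held without any 1 array and with controls pooled by vehicle (-3.16 in DES, -1.60 in PBO).

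Cyp8b1 rose in DHEA, Wy and CIDB. DHEA livers had 11.94, 12.41 and 12.00 and Wy livers 12.04, 12.02 and 12.18, against 10.79, 9.83 and 11.17 in MC control set 1. Every treated liver was above every control, by 1.52 ± 0.42 in DHEA (2.87-fold, adjusted p = 0.00715) and 1.48 ± 0.42 in Wy (2.80-fold, adjusted p = 0.0113). Wy-14643 is an agonist of the receptor Ppara, and DHEA is known as a peroxisome proliferator in rats. Both calls were lost without control replicate 5, the lowest of that set (1.14 and 1.10), and the differences fell to 0.97 and 0.93 against all 12 MC controls (adjusted p = 0.0413 and 0.0490). All 6 compounds set against this control set had a Cyp8b1 level above it, from 0.40 in AA to 1.52. TAA and Mcarb livers also lay above every control, by 1.17 (adjusted p = 0.0836) and 0.92 (adjusted p = 0.400), without a call. CIDB livers had 11.02, 11.84 and 12.35 against 10.21, 11.39 and 9.81 in CO control set 3, which overlapped. The difference of 1.27 ± 0.42 (adjusted p = 0.0333) was lost when CIDB replicate 2 or 3 or control replicate 4 or 6 was left out (0.94 to 1.21) and with array weights (0.48).

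Cyp27a1 (chromosome 9, 83712402 to 83743222) was lower in all 3 compounds set against MC control set 5. ETH livers had 11.83, 11.44 and 11.69, DES livers 11.79, 11.82 and 11.79, and PBO livers 11.82, 11.74 and 12.00, against 12.43, 12.55 and 12.28 in these controls. No treated liver reached the lowest control, and the differences were -0.77 in ETH (adjusted p = 2.13e-06), -0.62 in DES (1.49e-04) and -0.56 in PBO (6.64e-04), each with an SE of 0.12. This control set was itself high for the gene. It averaged 12.42 log2, against 11.85 in MC control set 6, a difference of 0.57 ± 0.12 (adjusted p = 0.00114), and with controls pooled by vehicle the DES and PBO differences shrank to -0.28 (adjusted p = 0.0820) and -0.23 (0.204), while that of ETH stayed called. In CIDB livers, at 12.18, 12.55 and 12.33 against 11.95, 11.96 and 12.11 in CO control set 3, Cyp27a1 was 0.35 ± 0.12 higher (adjusted p = 0.0448), a call that was lost in 5 of 6 fits with 1 array left out, all but that without CIDB replicate 1, with values from 0.25 to 0.43 over the 6 fits.

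**Figure D2:**
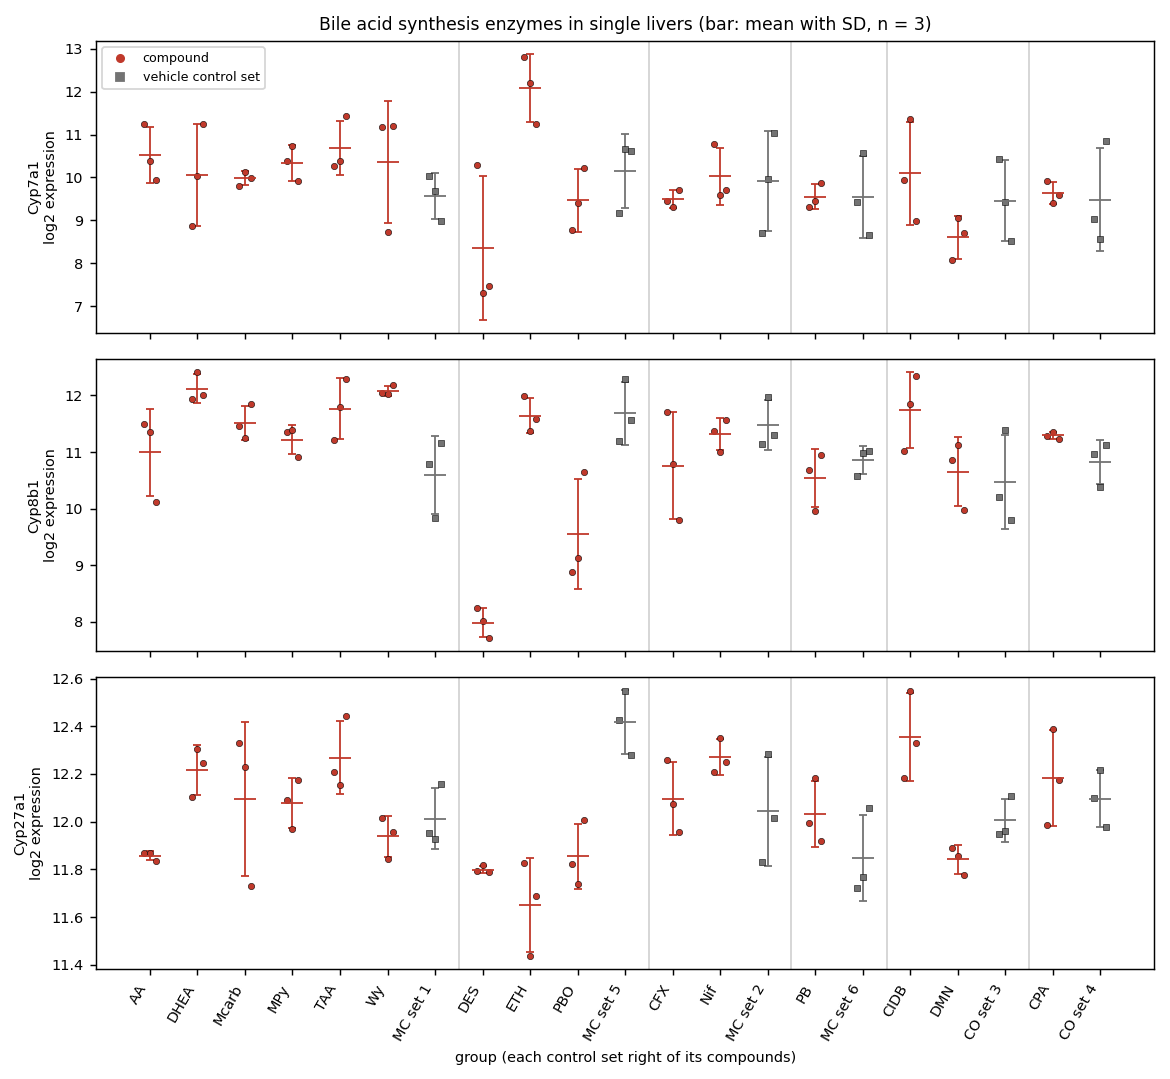
Log2 expression of Cyp7a1, Cyp8b1 and Cyp27a1 (top to bottom) in every liver, by group, with each vehicle control set right of its compounds and bars for the mean and SD of 3 animals. Cyp8b1 lies at 7.72 to 8.24 in DES livers, below every other liver, and Cyp7a1 spreads widely among vehicle livers, at 8.52 to 11.05.

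All calls of the conjugation enzymes were lower, and none was higher. Slc27a5 (chromosome 1, 82688742 to 82699335) had 10.00, 8.35 and 10.00 in ETH livers, against 12.50, 12.19 and 12.21 in MC control set 5. This was 7.22-fold lower (-2.85 ± 0.27, adjusted p = 6.37e-12), and every ETH liver was below every liver of the other groups. Wy livers, at 10.81, 10.55 and 11.004 against 12.35, 11.88 and 12.27 in MC control set 1, were 2.60-fold lower (-1.38 ± 0.27, adjusted p = 1.91e-04), again without overlap. Both calls held without any 1 array, and the ETH difference was -2.30 without ETH replicate 2. In PBO the gene was lower by the test (-0.78 ± 0.27, adjusted p = 0.0399), but PBO livers at 12.35, 11.02 and 11.19 overlapped the controls, and the call was lost in 5 of 6 fits with 1 array left out. It held only without PBO replicate 1 (-1.20). MPy livers, with 11.50, 11.13 and 11.40, also lay below all controls of their set, with a difference of -0.82 and an adjusted p of 0.0525. Nif livers, at 12.40, 12.40 and 12.68 against 12.02, 12.35 and 12.03 in MC control set 2, were all above their controls, with a difference of 0.36 and an adjusted p of 0.452.

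Baat (chromosome 5, 68647166 to 68656137) moved by less but was the most even gene among vehicle livers, with 12.84 to 13.15 over 18 animals and an SD of 0.091 within sets. ETH livers had 12.27, 12.23 and 12.38, against 13.00, 13.14 and 12.84 in MC control set 5, and CIDB livers 12.51, 12.16 and 12.58, against 12.96, 12.96 and 12.87 in CO control set 3. These groups were apart, by -0.70 ± 0.10 in ETH (1.63-fold lower, adjusted p = 1.07e-07) and -0.51 ± 0.10 in CIDB (1.43-fold lower, adjusted p = 1.01e-04). DHEA (-0.39), DES (-0.37), MPy (-0.34) and TAA (-0.31) also lowered Baat, with adjusted p from 0.00232 to 0.0378 and no overlap with their controls. The TAA call was lost in 5 of 6 fits with 1 array left out (all but that without TAA replicate 3), that of MPy without MPy replicate 1 or 3 or control replicate 5 (-0.35, -0.30 and -0.29), and that of DES without control replicate 8 (-0.30). Over all 15 compounds the Baat difference was negative in 13 and the Slc27a5 difference in 12.

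**Figure D3:**
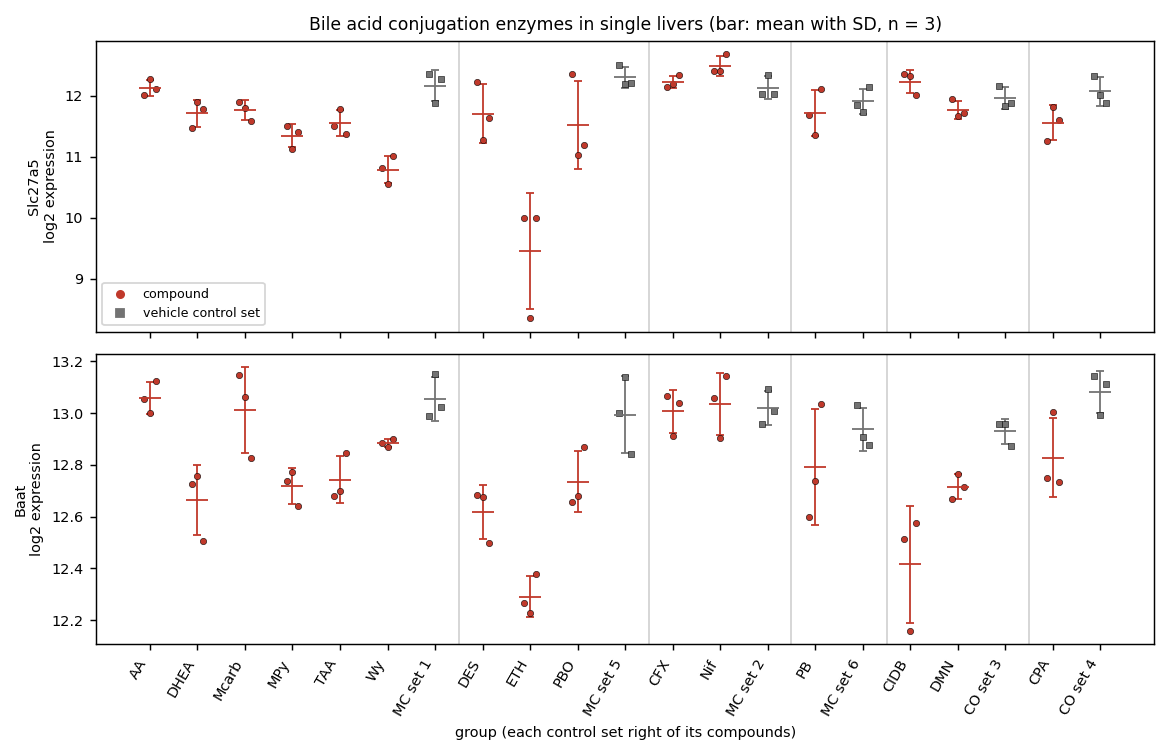
Log2 expression of Slc27a5 (top) and Baat (bottom) in every liver, by group, with each vehicle control set right of its compounds and bars for the mean and SD of 3 animals. ETH livers are the lowest for Slc27a5, at 8.35 to 10.00, against 12.19 to 12.50 in MC control set 5.

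The uptake carrier Slc10a1 (chromosome 6, 106344319 to 106357944) fell in 6 compounds and rose in none. ETH livers had 11.002, 11.32 and 11.15 and DES livers 11.53, 10.89 and 11.22, against 11.98, 11.93 and 11.96 in MC control set 5. MPy livers had 11.35, 11.30 and 11.27, against 12.01, 12.00 and 12.16 in MC control set 1. In these 3 compounds no treated liver reached its controls, with differences of -0.80 in ETH (adjusted p = 3.16e-06), -0.74 in DES (2.35e-05) and -0.75 in MPy (6.43e-05), each with an SE of 0.13, or 1.74-, 1.67- and 1.68-fold lower. TAA (-0.48, adjusted p = 0.0157), Wy (-0.38, 0.0405) and DHEA (-0.35, 0.0481) had smaller falls, also without overlap. The DHEA call was lost in all 6 fits with 1 array left out (-0.39 to -0.30), the Wy call in 5 of 6 (all but that without Wy replicate 1), and the TAA call without TAA replicate 2 (-0.43) or control replicate 6 (-0.42). Against all 12 MC controls the Wy and DHEA differences were -0.25 and -0.22 and were no longer called.

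The export pump Abcb11 (chromosome 3, 74424620 to 74520646) was not called by limma in any compound, and at an unadjusted p under 0.05 it differed in 2. Its lowest difference was in TAA livers, with 11.003, 11.37 and 11.34 against 11.67, 11.55 and 11.95 in MC control set 1. These groups were apart, by -0.48 ± 0.17 with a 95% interval from -0.82 to -0.15 and an adjusted p of 0.0693. AA livers were also below that set (-0.41, adjusted p = 0.152), and the highest difference was in PB (0.33, adjusted p = 0.392). In the livers with the lowest Slc10a1, Abcb11 differed by -0.29 in ETH (95% interval -0.62 to 0.05), 0.04 in DES (-0.30 to 0.37) and -0.23 in MPy (-0.57 to 0.10). Whether uptake and export genes differed in their response was not tested.

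**Figure D4:**
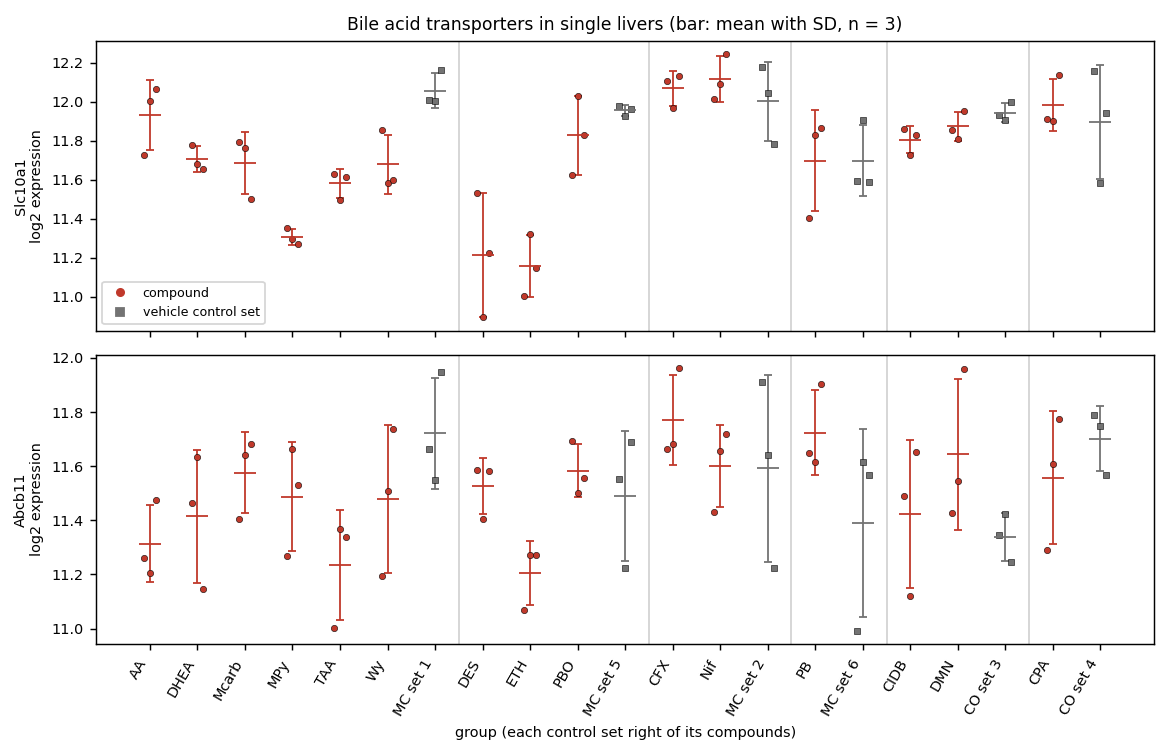
Log2 expression of Slc10a1 (top) and Abcb11 (bottom) in every liver, by group, with each vehicle control set right of its compounds and bars for the mean and SD of 3 animals. Slc10a1 lies at 10.89 to 11.53 in DES and ETH livers, against 11.93 to 11.98 in MC control set 5.

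The bile acid receptor Nr1h4 (chromosome 7, 25733471 to 25829440) fell in DES alone. DES livers had 9.83, 9.51 and 9.91, against 10.30, 10.65 and 10.49 in MC control set 5. The 3 DES livers were the lowest of all 63, and the difference of -0.73 ± 0.15 (1.66-fold lower, adjusted p = 3.96e-04) held without any 1 array. Livers of PBO (10.22, 10.12 and 10.15) and CFX (10.33, 10.24 and 10.20) also lay below their controls, by -0.32 and -0.34, with adjusted p of 0.173 and 1.00.

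Its target Nr0b2 (chromosome 5, 151063160 to 151066475) rose in the same DES livers, at 10.34, 10.86 and 9.79 against 8.14, 7.74 and 9.17 in MC control set 5. The groups did not overlap, and the rise was 3.93-fold (1.98 ± 0.64, adjusted p = 0.0263), but the call was lost without DES replicate 1 or 2 (1.97 and 1.71) or control replicate 7 or 8 (1.87 and 1.67), and with array weights (2.05). ETH livers had 10.71, 8.90 and 10.20 against the same controls, with 1 liver below the highest control (1.59, adjusted p = 0.0646). DMN livers, at 9.11, 9.48 and 10.35, overlapped 9.19, 7.48 and 7.39 in CO control set 3 (1.63, adjusted p = 0.168). Nr0b2 differences were positive in 13 of 15 compounds, but vehicle livers ranged from 7.03 to 9.76 with an SD of 0.84 within sets, and Nif livers alone from 7.04 to 10.42. DES livers thus combined the highest Nr0b2 mean of all groups with the lowest Nr1h4 and Cyp8b1 means.

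**Figure D5:**
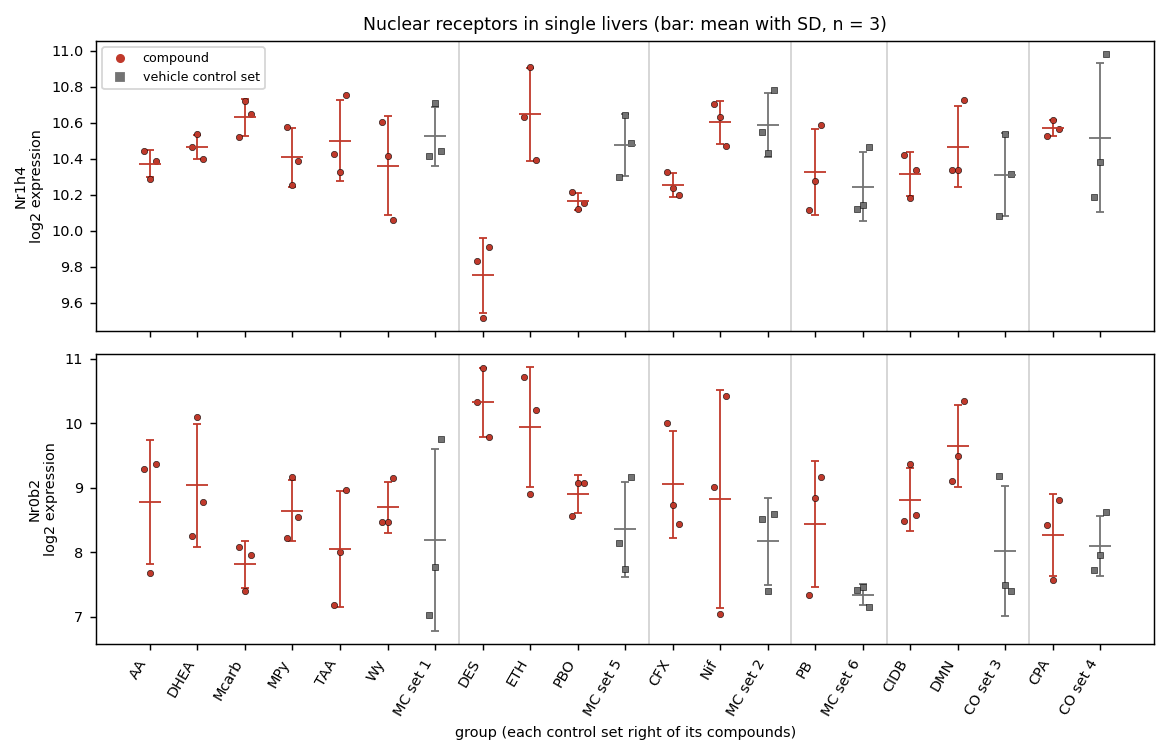
Log2 expression of Nr1h4 (top) and Nr0b2 (bottom) in every liver, by group, with each vehicle control set right of its compounds and bars for the mean and SD of 3 animals. DES livers lie at 9.51 to 9.91 for Nr1h4 and at 9.79 to 10.86 for Nr0b2.

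The background among animals given vehicle alone came from control sets of the same vehicle. Of 63 comparisons of a gene between such sets, limma called 1, the Cyp27a1 difference between MC control sets 5 and 6. Over all probe sets that pair differed in 10.2%, and MC control sets 1 and 6 in 7.77%. The shares of the other MC pairs were 0.914% (sets 1 and 2), 2.14% (1 and 5), 2.72% (2 and 5) and 1.95% (2 and 6), and that of CO control sets 3 and 4 was 0.466%. Cyp8b1 had the largest uncalled difference, at 10.59 in MC control set 1 against 11.68 in MC control set 5 (-1.09, adjusted p = 0.149). DES, ETH and PBO were set against the higher of these sets and DHEA and Wy against the lower.

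The study's class contrasts were made over compounds. NGC were compared with NC (8 against 2), NGC with GC (8 against 2), and all 10 carcinogens with NC, and limma called 0 of the 9 genes in each, beside 0.0189%, 0.0819% and 0.0126% of all probe sets, with 1, 0 and 1 of the 9 at an unadjusted p under 0.05. By the exact two-sided permutation test 0 of the 9 genes had p under 0.05, where 0.0222 (8 against 2) and 0.0152 (10 against 2) were the smallest possible values. Slc10a1 came closest, with a mean log2 fold change of -0.41 ± 0.32 (SD) over NGC and 0.09 ± 0.03 over NC (exact p = 0.0889), and -0.35 ± 0.31 over all carcinogens (exact p = 0.0606 against NC). The NGC themselves were uneven, with Cyp8b1 differences from -3.69 in DES to 1.52 in DHEA.

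AA, Mcarb and TAA are small amides or analogs of them. TAA carries sulfur in place of the oxygen of AA, and Mcarb is the methyl ester of carbamic acid. Their doses differed, and TAA was given for 7 days and the others for 14, so no comparison was made. Slc10a1 differed from MC control set 1 by -0.48 in TAA, -0.13 in AA and -0.37 in Mcarb, and Baat by -0.31, 0.00 and -0.04.

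Other bile acid genes were read from 3 lists. Their counts are to be read beside the shares of all probe sets given above for each compound. These ran from 0.0063% to 11.7% higher and from 0% to 11.8% lower. Of 10 measured synthesis enzymes, 9 were called in at least 1 compound, with 17 calls higher and 21 lower among 150 comparisons. DES lowered Amacr, the racemase of bile acid side-chain oxidation (-1.48 ± 0.27, 2.79-fold lower, adjusted p = 6.39e-05), with Hsd3b7 and Scp2, and raised Akr1d1, the 5β-reductase (0.65 ± 0.12), with Akr1c14. In PBO 9 of 10 were called, with 5 higher and 4 lower, beside 7.03% and 7.46% of all probe sets. Of these Akr1d1 was highest (0.55) and Amacr lowest (-1.24). In DHEA and Wy 3 rose and 1 fell in each, led by the peroxisomal thioesterase Acot8 (1.51 and 1.38, both with an SE of 0.10), with Amacr lowest in DHEA (-0.95) and Akr1c14 lowest in Wy (-0.50). Other compounds had fewer calls. Akr1d1 rose in ETH (0.47) and PB (0.44), Akr1c14 in CPA (0.43), and Slc27a2, an acyl-CoA synthetase, in Nif (0.27). Amacr fell in CIDB (-0.84), Hsd3b7 in TAA (-0.56) and Nif (-0.46), the side-chain oxidase Acox2 in MPy (-0.56) and CPA (-0.43), and Slc27a2 in ETH (-0.46).

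Of 9 measured transporters 8 were called, 19 times higher and 12 times lower among 135 comparisons. Abcc3, a basolateral export pump, rose in 7 compounds and fell in none. Its level averaged 10.20 in PBO livers, against 6.71 in MC control set 5 (11.2-fold, adjusted p = 4.81e-17), 9.65 in CPA livers, against 6.68 in CO control set 4 (7.84-fold, 1.68e-14), and 9.11 in PB livers, against 6.63 in MC control set 6 (5.58-fold, 1.23e-11). Smaller rises of Abcc3 led the list in MPy (1.09), DHEA (1.08) and DES (0.63). PB and CPA had no call among the 9 genes, while 3 of 9 transporters rose in each, beside 0.964% and 3.11% of all probe sets. The ETH list was led by Abcg5, which exports sterols together with Abcg8 (2.00 ± 0.25), with the uptake carrier Slco2b1 lowest (-1.99 ± 0.14). Slco2b1 was also the lowest in DHEA (-0.70) and TAA (-0.62). Slco1a4, an organic anion uptake carrier, was lowest in DES (-1.23) and rose in Wy (0.59). Slco1a1 fell in Mcarb (-0.62) and MPy (-0.66), and the canalicular pump Abcc2 rose in TAA (1.05) and DMN (0.59) and fell in Wy (-0.61).

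Among 9 measured regulators 8 were called, 12 times higher and 7 times lower among 135 comparisons. In DES, MPy, PBO and Wy this was 1 call each, too few to set apart from the share of all probe sets. Hnf4a, a hepatocyte nuclear receptor, was highest in AA (0.85 ± 0.12) and PBO (0.68) and lowest in Nif (-1.23 ± 0.12, adjusted p = 1.59e-10). Whether its level bears on Cyp7a1 or Cyp8b1 was not tested. Nr1i3 (CAR) rose in CIDB (1.28 ± 0.31), Rxra in DHEA (0.62) and Ppara in Wy (0.33). Fgfr4, the liver receptor for the gut hormone that represses Cyp7a1, fell in DHEA (-0.53), AA (-0.32) and MPy (-0.28) and rose in Nif (0.31), and Nr1h3 (LXRα) fell in DES (-0.44).

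Livers are mixed tissue, and fewer hepatocytes and less RNA per hepatocyte cannot be told apart. Counts of called markers, here and below, are also to be read beside the shares of all probe sets given above for each compound. The hepatocyte markers Alb, Apoa1 and Ttr averaged 15.02, 13.82 and 14.20 log2 over all arrays, on a scale that ran up to 15.11. Alb was not called in any compound, with differences from -0.06 to 0.04. Of 11 hepatocyte markers ETH raised 1 and lowered 1 (median 0.03), and their mean per animal was 12.44 to 12.62 in ETH livers, against 12.54 to 12.60 in MC control set 5. DES raised 1 and lowered 1 (median -0.07), at 12.50 to 12.55, and Wy lowered 6 and raised 0 (median -0.22), at 12.35 to 12.53, against 12.56 to 12.63 in MC control set 1. DHEA raised 2 and lowered 4, at 12.57 to 12.67, and PBO raised 2 and lowered 3, at 12.36 to 12.60.

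Markers of other liver cells moved with several of the same compounds. In ETH livers 6 of 8 macrophage markers rose and 1 fell (median 1.15), and their mean per animal was 10.05 to 10.11, against 9.09 to 9.52 in MC control set 5. Biliary and oval cell markers rose in 4 of 8 (Krt19 by 1.90), at 7.87 to 8.14 against 7.41 to 7.49. Both lists were thus above the controls in every ETH liver.

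In DES livers the biliary and oval cell list was lower, with 2 of 8 called lower (Afp by -0.89) and a mean per animal of 7.21 to 7.29, against 7.41 to 7.49 in MC control set 5. These DES means overlapped those of the other vehicle livers in MC control sets 1 (7.28 to 7.50), 2 (7.26 to 7.33) and 6 (7.25 to 7.35). The stellate and matrix list was higher, with 2 of 10 called higher (Sparc by 0.84) and 7.74 to 7.79 in DES livers, against 7.44 to 7.60 in MC control set 5. Vehicle livers of MC control set 1 had 7.76 to 7.78 on this list, while sets 2 (7.40 to 7.52) and 6 (7.45 to 7.66) lay below the DES livers. Macrophage markers, at 9.27 to 9.47 in DES livers, lay within the range of MC control set 5. In PBO 1 biliary and oval cell marker rose and 2 fell, at 7.35 to 7.45, which overlapped the same controls.

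In CIDB livers 3 of 8 biliary and oval cell markers rose (Epcam by 1.01, median 0.36), at 7.45 to 7.70 against 7.13 to 7.33 in CO control set 3. Of 10 stellate and matrix markers 2 rose (Dcn by 1.38 and Lum by 1.07) and 1 fell, and the list median was -0.11. Their mean per animal, at 7.70 to 7.98, overlapped 7.54 to 7.82 in CO control set 3. Of 8 macrophage markers 2 rose and 1 fell, at 9.51 to 9.58 against 9.10 to 9.46. The biliary and the macrophage means did not overlap with CO control set 3. In the vehicle livers of CO control set 4 the biliary list was at 7.31 to 7.34, also below CIDB. The macrophage list was at 9.47 to 9.92 there, a range that held all CIDB livers.

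Against MC control set 1, 6 of 8 macrophage markers fell in DHEA (8.89 to 9.14 per animal) and 4 of 8 in Wy (8.94 to 9.27), where the controls had 9.60 to 9.74. The lowest vehicle livers of MC control sets 2, 5 and 6 were at 9.13, 9.09 and 9.26. Wy livers thus overlapped each of these sets, and DHEA livers sets 2 and 5. DHEA also lowered 3 of 10 stellate and matrix markers (Col3a1 by -1.18), at 7.29 to 7.48 against 7.76 to 7.78 in MC control set 1. For this list too the other vehicle livers were lower, and DHEA livers overlapped MC control sets 2 (7.40 to 7.52), 5 (7.44 to 7.60) and 6 (7.45 to 7.66). The marker Epcam rose in MPy (1.14), DHEA (1.03), TAA (0.94) and Wy (0.86), but its list had medians of -0.06, -0.04, -0.03 and -0.08. The mean of this biliary and oval cell list per animal was 7.41 to 7.66 in MPy and 7.34 to 7.49 in DHEA. It was 7.45 to 7.51 in TAA and 7.34 to 7.43 in Wy. Each of these ranges overlapped 7.28 to 7.50 in MC control set 1. The part of these markers in the results for the 9 genes was not tested.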

How the data were processed

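Total RNA of 63 rat livers was hybridised to RAE230A arrays, and the deposited log2 values were made by the authors with RMA, which corrects background, normalizes between arrays and summarises probes. Values ran from 3.96 to 15.11, with array medians from 7.421 to 7.51, and the number of arrays limits the precision. A gene was its probe set with the highest mean among the 12783 probe sets with 1 symbol. A mean for each of 21 groups was fitted with limma 3.58.1 in R 4.3.3 (42 residual degrees of freedom). Each compound was compared with its control set, control sets of 1 vehicle with each other, and class contrasts were made over 12 compounds, with exact permutation tests as an alternative. Adjustment was by Benjamini-Hochberg over 15866 probe sets, and an adjusted p under 0.05 was called. Compounds that share a control set (up to 6) share its error. The test was checked on simulated data.

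The 9 genes and all lists were chosen with earlier results of these data known. The text names the 9 genes, from each list of other bile acid genes the called gene with the highest and lowest difference per compound, and for each of the 9 genes the 3 genes with the most similar pattern. Hsd3b7, Scp2 and Akr1c14 in DES and the single markers of non-hepatocyte cells were named after their values were seen. Of the listed genes, 2 synthesis enzymes, 4 transporters and 1 regulator were not on the array. Alternatives were the 6 compared arrays alone, array weights, controls pooled by vehicle, an intensity trend with robust hyperparameters, a filter on low means, median centring, a 1.5-fold criterion, a replicate block and each array left out. Promoter sequences and gene coordinates were RefSeq's (GRCr8). Figures and searches used Python 3.11.15, pandas 2.3.3 and matplotlib 3.10.9.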

Additional observations from a re-analysis of the deposited data

How the results depend on the processing

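None of the 27 called differences changed direction under any alternative, and the other differences were followed only as counts of calls. Of the 27 calls, 10 held under every alternative, namely Cyp8b1 in DES and PBO, Cyp27a1 in ETH, Nr1h4 in DES, Slc10a1 in DES, ETH and MPy, Slc27a5 in ETH and Wy, and Baat in ETH. Over the alternatives the count of genes called was 4 to 7 in DES (against 6), 4 to 6 in ETH (against 5) and 2 to 4 in PBO (against 3). Lower calls rose from 21 to 25 with array weights and with the filter on low means. Further counts moved as follows. With at least 1.5-fold required, the lower calls dropped to 12 (from 21 of all comparisons), and the count was 1 in DHEA, 1 in MPy, 1 in CIDB and 0 in TAA, against 3, 2, 3 and 2. With array weights it was 6 in TAA, 2 in DMN (against 0) and 3 between control sets (against 1). With controls pooled by vehicle it was 1 in DMN, and on the 6 compared arrays alone 1 in CIDB and 0 between control sets, where the 1.5-fold criterion also gave 0. Leaving out single arrays gave 1 to 3 in CIDB, 0 to 1 in CPA (1 without CPA replicate 2), 1 to 2 in DHEA, 1 to 2 in MPy, 0 to 2 in TAA and 1 to 3 in Wy, and between control sets from 1 to 2. The causes were not tested. A replicate block was possible for PB and CPA, which share numbers with their controls, and gave 0 and 0, as without it. Deviations of same-numbered arrays correlated at -0.15 to 0.17, which gave no sign of a pairing, though groups of 3 cannot exclude one. Each of the 9 genes has 1 probe set, so the mean of all probe sets gave the same values. The filter kept 7933 probe sets and all 9 genes. Precision was limited by 3 animals a group, most for Cyp7a1 and Nr0b2.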

Other observations

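Over the mean differences of the 15 compounds, which share control sets, the genes with the pattern most like Slc27a5 were Lcat, the cholesterol-esterifying enzyme of plasma (Pearson r = 0.968), Cfhr4 (0.966) and Sardh (0.895). Those most like Cyp8b1 were Mob2 (0.891), Shroom2 (0.888) and Phyh, a peroxisomal hydroxylase (0.882), and those most like Cyp7a1 were Nat8b (0.865), Nceh1 (0.830) and Fdps, an enzyme of cholesterol synthesis (0.830). Slc10a1 was most like Psg29 (0.878), Upb1 (0.854) and Gpat4 (0.8503), Baat most like Bmf (0.886), Hyou1 (0.867) and Ergic1 (0.852), and Cyp27a1 most like Mpg (0.883), Cnmd (0.880) and Sos1 (0.879). Nr1h4 was most like Dhrs3 (0.866), Nub1 (0.861) and Usp39 (0.852), Nr0b2 most like Tpm2 (0.851), Mphosph8 (0.814) and Ppan (0.772), and Abcb11 most like Exoc2 (0.897), Hbp1 (0.891) and Kctd10 (0.859). These are the highest of 10411 genes and are given as descriptions.

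Among the 18 vehicle livers, 3 relations were computed. Nr0b2 and Cyp7a1 had r = 0.22 (permutation p = 0.373, adjusted over the 3 relations 0.559) and rho = 0.26 (p = 0.298, adjusted 0.447), with r = 0.37 without the 2 livers farthest from the Nr0b2 median, and r = 0.18 (permutation p = 0.465) within control sets. Nr0b2 and Cyp8b1 had r = 0.09 (permutation p = 0.739) and rho = 0.17 (p = 0.501), r = 0.24 without the 2 farthest livers, and r = -0.03 within sets (permutation p = 0.922). Cyp7a1 and Cyp8b1 had r = 0.39 (permutation p = 0.115, adjusted 0.345) and rho = 0.42 (p = 0.0849, adjusted 0.255), r = 0.38 without the 2 farthest, and r = 0.27 within sets (permutation p = 0.336). None passed the threshold.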
